A study of Mus musculus with 2 samples.

Results

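Wnt signalling in the mouse retinal pigment epithelium (RPE) and choroid is described here through 44 genes, chosen by symbol as Wnt ligands and the genes that process them, Frizzled and LRP receptors, secreted antagonists, beta-catenin machinery, TCF/LEF factors and feedback targets. All 44 were rows of the count table of 23420 genes, and 42 had enough reads to be among the 15796 genes tested. Polyadenylated RNA was sequenced from 3 AhR knockout-labelled mice (genotype AhR -/-, strain B6.129-AhRtm1Bra/J) and 3 wild-type mice (AhR +/+, strain C57BL6/J), all 11 to 13 months old and untreated. AhR, the aryl hydrocarbon receptor, is a transcription factor that dioxins and other small ligands switch on. Each library held the RPE and choroid of 2 eyes, dissected after the front of the eye and the retina were taken away. The labels do not call the wild-type mice littermates, so genotype and strain background cannot be told apart. None of the 44 genes lies on the chromosome of Ahr.

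Canonical Wnt ligands bind a Frizzled receptor together with LRP5 or LRP6, which stops the destruction complex (AXIN, APC, GSK3B) from marking beta-catenin for breakdown, and beta-catenin then switches on genes with TCF/LEF factors. Secreted antagonists hold ligands or LRP co-receptors away from each other, and AXIN2, RNF43, ZNRF3 and NKD1 are feedback inhibitors that the pathway itself induces in many tissues. In the eye the pathway shapes the RPE during development, and norrin acting through FZD4 and LRP5 is required for retinal vessels.

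No member was called at an adjusted p under 0.05 (edgeR's quasi-likelihood test, adjusted over 15796 genes), where 0.0506% of all tested genes were. The lowest adjusted p of a member was 0.215, for Lrp6 and Fzd8. Of the 42 tested members, 28 had a log2 fold change (AhR knockout-labelled over wild type) below 0 and 14 above it, with a median of −0.18 against 0.01 over all tested genes. At an unadjusted p under 0.05 stood 9 members, 7 of them lower in AhR knockout-labelled mice and 2 higher, which is 21.4% of those tested against 14.2% of all genes. The 7 lower members compare with 6.62% of all genes that were lower at that threshold. The groups of libraries did not overlap for 9 members, against 20.0% of all genes. In 8 of these 9 every AhR knockout-labelled library was below every wild-type one, against 9.96% of all genes, and in 1 every AhR knockout-labelled library was above, as for 1585 of the 15796 genes. These shares describe the list and are not a test of it. DESeq2 called 1 member, Lrp6, where it called 3.06% of all genes. In the authors' deposited table Wnt4 was the 1 member with an FDR under 0.05, where 2.37% of its genes had one.

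**Figure D1:**
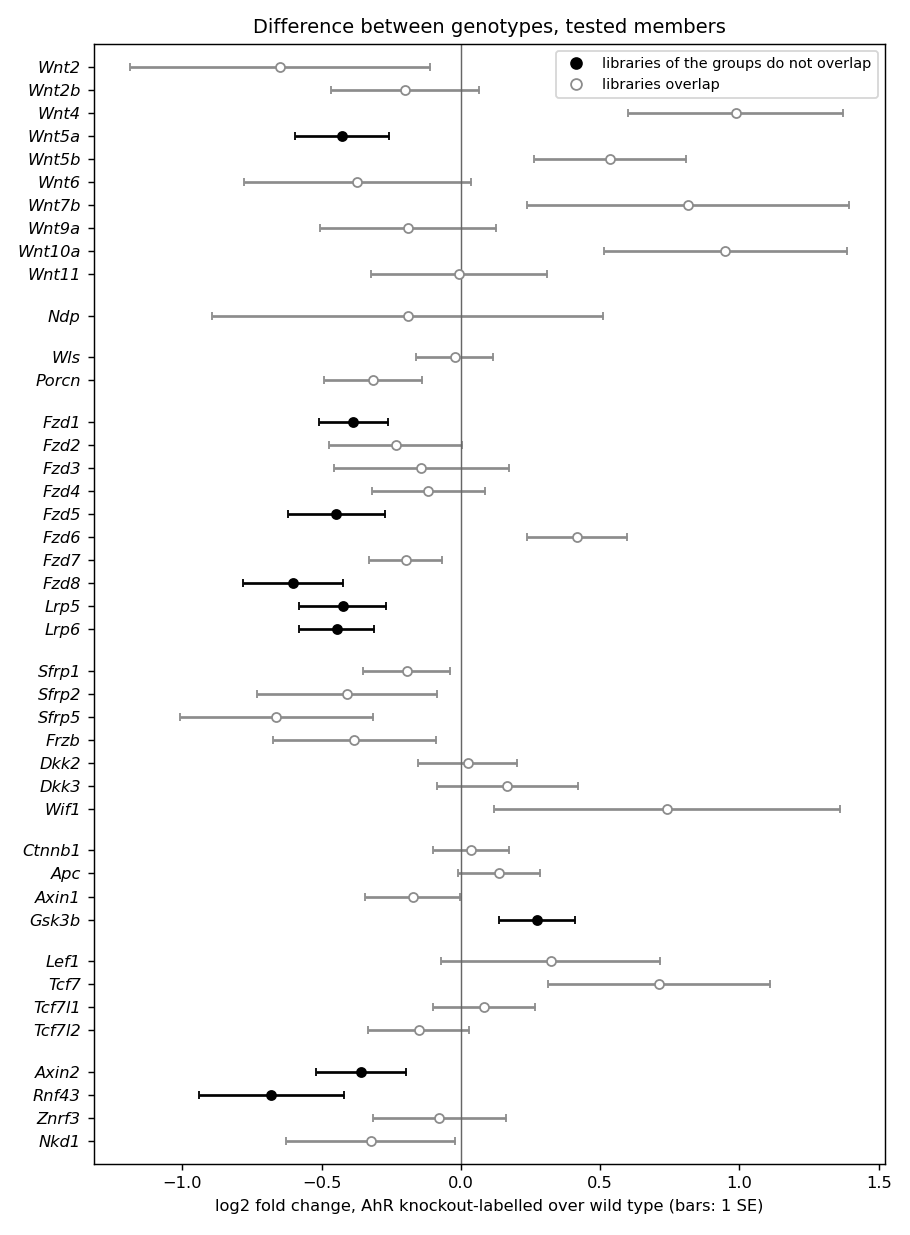
Log2 fold change of each of the 42 tested members, AhR knockout-labelled over wild type, with bars of 1 SE, grouped from the top as Wnt ligands, norrin, ligand processing, receptors, antagonists, beta-catenin machinery, TCF/LEF factors and feedback targets. Filled points mark the 9 members whose libraries do not overlap between the groups, of which Gsk3b is right of 0 and the other 8 are left of it.

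The libraries held 18058725 to 28692624 counts assigned to genes. Levels are CPM, the counts relative to the library's total scaled by TMM factors, and levels of different genes are compared only per kilobase of exon. Ahr itself had 41.4, 45.4 and 40.6 CPM in the AhR knockout-labelled libraries, against 19.7, 20.2 and 26.0 CPM in wild type (log2 fold change 0.95, SE 0.16, adjusted p = 0.0991 by edgeR). A count over the whole gene does not check the deleted part, and the gene was higher and not lower under that label, so the group is called knockout-labelled. The 10 RPE markers summed to 36673, 21143 and 23125 CPM in AhR knockout-labelled libraries, against 28241, 38787 and 33523 CPM in wild type; Rpe65, the retinoid isomerase, was at 1326 to 2987 CPM over the 6 libraries, and Best1, a channel of the RPE, at 1.72 to 3.55 CPM. Endothelial transcripts were present too. So were corneal or conjunctival and photoreceptor transcripts, although the protocol removes the front of the eye and the retina. The 9 neural retina markers summed to 14276, 12896 and 12683 CPM in AhR knockout-labelled libraries, against 8817, 9978 and 19017 CPM in wild type. The 11 cornea and conjunctiva markers summed to 3771, 15385 and 11971 CPM in AhR knockout-labelled libraries 1 to 3, against 6282, 2586 and 3019 CPM in wild-type libraries 1 to 3. All 11 had a log2 fold change above 0. None was called by edgeR, and 8 stood at an unadjusted p under 0.05, against 14.2% of all genes. The 7 erythroid markers summed to 1118, 56.1 and 78.4 CPM in AhR knockout-labelled libraries, against 4.32, 20.7 and 33.7 CPM in wild type, so AhR knockout-labelled library 1 stood apart in them. Xist and Ddx3y counts put library 1 of each group as female and the other 4 as male. In such bulk samples fewer cells of a type and less RNA per cell cannot be told apart.

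**Figure D2:**
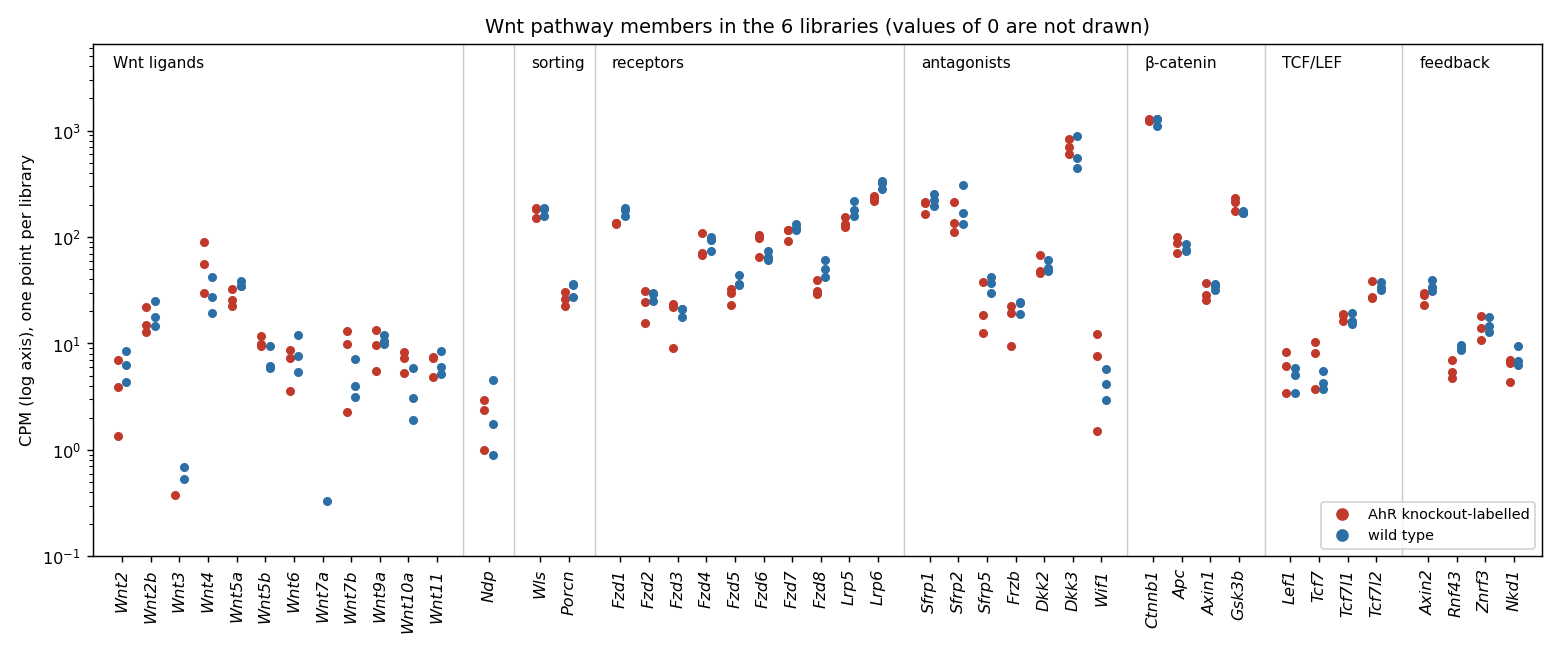
CPM of all 44 members in the 6 libraries on a log axis, AhR knockout-labelled left of wild type, by role (sorting stands for the ligand processing genes, and Ndp stands alone after the ligands). In CPM, which is not scaled by gene length, Ctnnb1 and Dkk3 lie highest and Wnt3 and Wnt7a lowest. Values of 0 are not drawn. Wnt7a therefore shows only wild-type library 2 (0.331 CPM), and Wnt3 only AhR knockout-labelled library 1 (0.377 CPM) and wild-type libraries 2 and 3 (0.537 and 0.691 CPM).

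Most receptor transcripts had lower values in AhR knockout-labelled libraries. Of 10 Frizzled and LRP genes, 9 had a log2 fold change below 0, and the median was −0.31. For 5 of them (Lrp5, Lrp6, Fzd1, Fzd5 and Fzd8) every AhR knockout-labelled library lay below every wild-type library, against 9.96% of all genes. None was called by edgeR, and 6 stood at an unadjusted p under 0.05, these 5 and Fzd6, against 14.2% of all genes. These counts do not test the receptors as a group. Added up per kilobase, the 10 receptors had 138.2, 135.2 and 131.4 CPM per kb in AhR knockout-labelled libraries, against 175.4, 156.0 and 152.4 CPM per kb in wild type, with no overlap.

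Lrp6 (chromosome 6, 134446476 to 134566965, minus strand, GRCm38) encodes one of the pair of LRP co-receptors of canonical Wnt signalling. It had 216, 243 and 232 CPM in AhR knockout-labelled libraries, against 339, 283 and 319 CPM in wild type. Every AhR knockout-labelled library was low and the groups were apart, with a log2 fold change of −0.45 (SE 0.13, adjusted p = 0.215 by edgeR). DESeq2 gave Lrp6 an adjusted p of 0.0335, the lowest of 17 alternative settings, which reached up to 0.507.

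Lrp5 (chromosome 19, 3584828 to 3686564, minus strand) encodes the other co-receptor, which also serves norrin. Its levels were 154, 125 and 132 CPM in AhR knockout-labelled libraries, against 216, 178 and 156 CPM in wild type. The groups nearly touched, at AhR knockout-labelled library 1 and wild-type library 3. The log2 fold change was −0.42 (SE 0.16, adjusted p = 0.280 by edgeR).

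Fzd8 (chromosome 18, 9212163 to 9218136, plus strand) encodes a Frizzled that can signal through beta-catenin. It had 39.9, 31.0 and 29.4 CPM in AhR knockout-labelled libraries, against 60.4, 49.6 and 42.2 CPM in wild type. All 3 AhR knockout-labelled values were lower, and animal 1 was highest in both groups. The log2 fold change was −0.60 (SE 0.18, adjusted p = 0.215 by edgeR), the lowest among the receptors.

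Fzd1 (chromosome 5, 4753839 to 4758035, minus strand) was the Frizzled with the highest level per kilobase, 36.9 CPM per kb over the 6 libraries. It had 134.2, 135.2 and 133.1 CPM in AhR knockout-labelled libraries, against 189, 156 and 181 CPM in wild type. The AhR knockout-labelled libraries were close to each other and all below wild type, with a log2 fold change of −0.39 (SE 0.12, adjusted p = 0.235 by edgeR). Fzd5 (chromosome 1, 64730558 to 64737751, minus strand), a Frizzled needed for normal eye development, had 23.0, 29.6 and 32.7 CPM in AhR knockout-labelled libraries, against 44.4, 35.4 and 36.5 CPM in wild type. Its groups were separate by a narrow gap, and its log2 fold change was −0.45 (SE 0.17, adjusted p = 0.305 by edgeR).

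**Figure D3:**
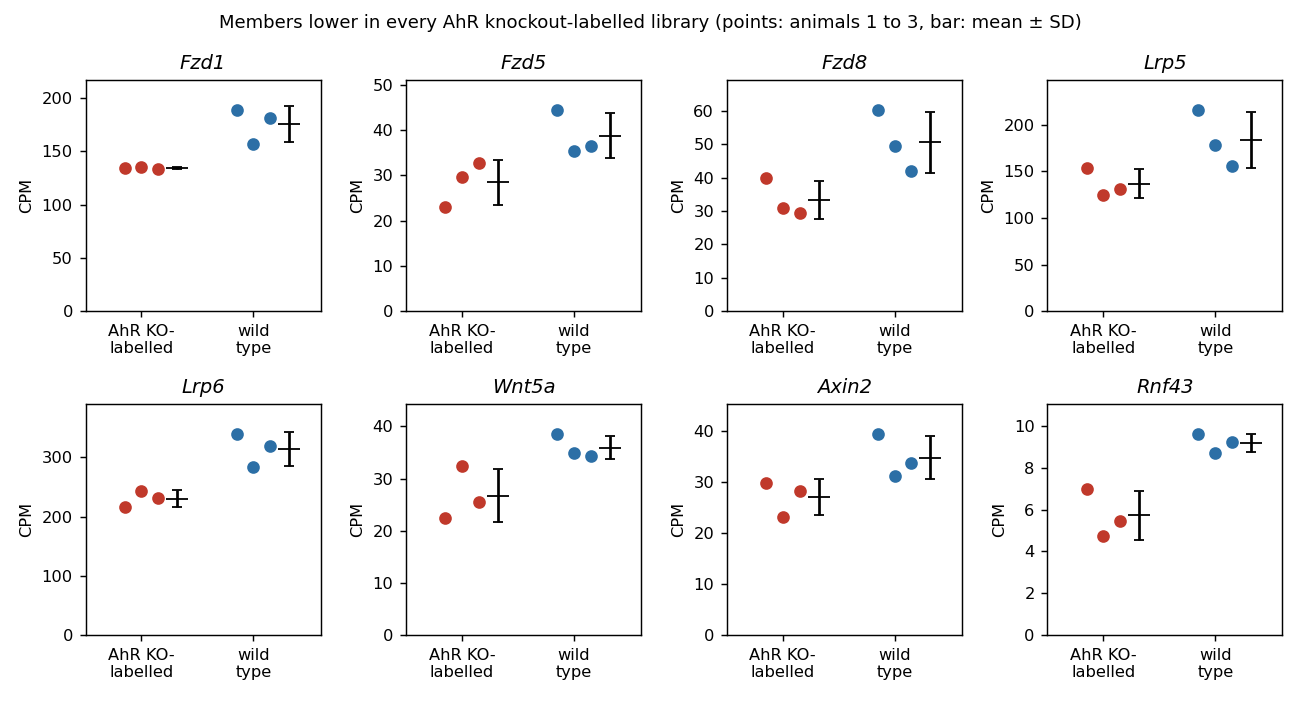
CPM of the 8 members that were lower in every AhR knockout-labelled library, each panel with its own axis from 0, AhR knockout-labelled left of wild type; points are animals 1 to 3 from left to right and the bar is the mean ± SD (n = 3 each). Fzd1 sits between 133.1 and 135.2 CPM in the AhR knockout-labelled libraries and between 156 and 189 CPM in wild type.

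Fzd6, a Frizzled of planar cell polarity in skin and hair, was the 1 receptor on the other side. It had 65.0, 103 and 97.7 CPM in AhR knockout-labelled libraries, against 73.4, 65.2 and 60.7 CPM in wild type. AhR knockout-labelled libraries 2 and 3 were high and library 1 lay among wild type, with a log2 fold change of 0.42 (SE 0.18, adjusted p = 0.339 by edgeR). Per kilobase, Fzd6 made up 12.7%, 20.5% and 20.1% of the summed Frizzled level in AhR knockout-labelled libraries, against 11.9%, 11.6% and 11.1% in wild type.

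The remaining receptors overlapped between the groups. Fzd7 had 116.4, 115.4 and 92.2 CPM in AhR knockout-labelled libraries, against 121.7, 133.5 and 116.3 CPM in wild type. Fzd4, the norrin receptor, had 109.3, 67.7 and 70.1 CPM in AhR knockout-labelled libraries, against 100.8, 94.1 and 73.2 CPM in wild type. Fzd2 and Fzd3 spanned 15.5 to 31.1 and 9.13 to 23.2 CPM in AhR knockout-labelled libraries, against 24.8 to 30.0 and 17.8 to 21.2 CPM in wild type. Per kilobase the order over the 6 libraries was Fzd1, Fzd7, Lrp6, Lrp5, Fzd6, Fzd4, Fzd2, Fzd8, Fzd5 and Fzd3. Lrp5 was above Fzd6 in 4 of 6 libraries, Fzd6 above Fzd4 in 4 of 6 and Fzd2 above Fzd8 in 2 of 6. These neighbours did not differ beyond their spread. Lrp6 was above Lrp5 in 5 of 6.

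Markers of several cell types were also lower, and their values stand beside the receptors. Of the 10 RPE markers, whose sums are given above, 7 had a log2 fold change below 0 and 3 above, with a median of −0.31. Of 7 Schwann cell markers 6 were below 0 and 1 above. By edgeR 1 RPE and 2 Schwann cell markers stood at an unadjusted p under 0.05. Other lists went the other way, with 7 of 8 skeletal muscle and 6 of 9 neural retina markers above 0. The 12 endothelial markers summed to 1263, 930 and 811 CPM in AhR knockout-labelled libraries, against 1279, 1216 and 1241 CPM in wild type; 10 had a log2 fold change below 0, edgeR called none, and 6 stood at an unadjusted p under 0.05. The 9 pericyte and smooth muscle markers summed to 1011, 818 and 766 CPM in AhR knockout-labelled libraries, against 1175, 1170 and 1029 CPM in wild type, with 8 of 9 below 0. The 9 fibroblast markers summed to 8371, 8822 and 8109 CPM in AhR knockout-labelled libraries, against 9772, 9353 and 11448 CPM in wild type, also with 8 of 9 below 0. The 9 sclera and cartilage markers summed to 643, 1022 and 791 CPM in AhR knockout-labelled libraries, against 1406, 1042 and 1674 CPM in wild type, with 5 of 8 tested below 0. In CPM the sums of the last 3 lists did not overlap between the groups, while the endothelial sums overlapped at AhR knockout-labelled library 1. Summed per kilobase, as the receptors were, the fibroblast and the sclera and cartilage lists again did not overlap. On that measure the endothelial sums did not overlap either, with 347 CPM per kb in AhR knockout-labelled library 1 against 381 in wild-type library 2. The pericyte and smooth muscle sums did overlap, with 311.5 CPM per kb in AhR knockout-labelled library 1 against 310.9 in wild-type library 3. edgeR called none of these markers, and 3 of the pericyte and smooth muscle, 3 of the fibroblast and 2 of the sclera and cartilage markers stood at an unadjusted p under 0.05. Of all tested genes 14.2% stood at that threshold. The part of cell content in the receptor values was not tested. Base composition also differed, with a median GC content of 52.5% over the members, against 49.8% over all tested genes. With a GC correction the log2 fold change was −0.23 for Fzd1, −0.52 for Lrp6 and −0.58 for Fzd8, and the median over the members was −0.09.

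A few short stretches are shown because they belong to lower receptors (Fzd1, Fzd5), to the feedback gene most used as a Wnt readout (Axin2) and to the 1 member under the authors' FDR threshold (Wnt4). Each is the 250 bases before the RefSeq transcript start (GRCm38.p6), 5′ to 3′ on the gene's own strand: chr5:4758217-4758466 minus for Fzd1, chr1:64737751-64738000 minus for Fzd5, chr11:108920099-108920348 plus for Axin2 and chr4:137277385-137277634 plus for Wnt4. Capitals mark CTTTGA or CTTTGT, TCF/LEF-type letters, and GCGTG, the core of the AhR response element, on either strand.
Fzd1: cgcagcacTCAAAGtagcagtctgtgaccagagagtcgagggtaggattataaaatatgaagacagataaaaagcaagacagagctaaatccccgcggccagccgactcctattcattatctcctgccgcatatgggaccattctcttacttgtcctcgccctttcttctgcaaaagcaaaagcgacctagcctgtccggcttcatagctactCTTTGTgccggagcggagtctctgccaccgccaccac
Fzd5: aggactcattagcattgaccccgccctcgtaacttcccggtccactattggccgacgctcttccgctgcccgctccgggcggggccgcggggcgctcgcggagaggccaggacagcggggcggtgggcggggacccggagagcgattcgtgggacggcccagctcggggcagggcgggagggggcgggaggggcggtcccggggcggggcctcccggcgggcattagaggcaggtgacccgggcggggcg
Axin2: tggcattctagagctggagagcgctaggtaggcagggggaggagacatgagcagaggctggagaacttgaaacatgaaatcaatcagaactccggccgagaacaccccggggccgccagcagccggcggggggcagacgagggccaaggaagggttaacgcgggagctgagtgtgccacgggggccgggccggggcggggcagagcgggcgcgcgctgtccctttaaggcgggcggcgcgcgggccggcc
Wnt4: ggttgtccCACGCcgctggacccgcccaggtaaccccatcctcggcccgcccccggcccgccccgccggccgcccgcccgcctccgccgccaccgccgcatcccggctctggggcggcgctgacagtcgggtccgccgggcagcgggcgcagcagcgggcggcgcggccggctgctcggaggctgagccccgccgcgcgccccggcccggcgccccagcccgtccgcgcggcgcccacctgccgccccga
The Fzd1 stretch holds 1 CTTTGA, read on the other strand, and 1 CTTTGT, the Wnt4 stretch holds 1 GCGTG, read on the other strand, and those of Fzd5 and Axin2 hold none of these. Windows were at hand for 29 members, 39 windows in all. CTTTGA or CTTTGT stood in 11 of them (28.2%), against 27.6% of 32851 windows of the same length, and GCGTG in 17 (43.6%), against 28.2%. The member windows also had more CG dinucleotides, which GCGTG contains, with a median of 16 against 6 over all windows. A match describes letters and is not a binding site.

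All 4 feedback targets had a log2 fold change below 0, with a median of −0.34. For 2 the groups were separate and lower, against 9.96% of all genes. Axin2 (chromosome 11, 108920349 to 108950783, plus strand), which rebuilds the destruction complex, had 29.9, 23.1 and 28.3 CPM in AhR knockout-labelled libraries, against 39.4, 31.3 and 33.7 CPM in wild type. Its groups were separate by a narrow gap, and its log2 fold change was −0.36 (SE 0.16, adjusted p = 0.364 by edgeR). Rnf43 (chromosome 11, 87662722 to 87735539, plus strand), a ubiquitin ligase that removes Frizzleds from the cell surface, had 6.996, 4.72 and 5.44 CPM in AhR knockout-labelled libraries, against 9.59, 8.72 and 9.22 CPM in wild type. Every wild-type library was higher, and the log2 fold change was −0.68 (SE 0.26, adjusted p = 0.299 by edgeR), the lowest of the 42 tested members. Znrf3, a ligase of the same kind, overlapped, with 10.8, 13.9 and 18.0 CPM in AhR knockout-labelled libraries, against 17.7, 12.9 and 14.5 CPM in wild type. Nkd1, which binds Dishevelled, spanned 4.39 to 6.97 CPM in AhR knockout-labelled libraries and 6.25 to 9.42 CPM in wild type.

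Among the ligands the values went both ways. Of 12 listed Wnt genes 10 were tested, 6 with a log2 fold change below 0 and 4 above. None was called by edgeR, and 2 (Wnt4 and Wnt5a) stood at an unadjusted p under 0.05, against 14.2% of all genes. Wnt4 had the highest level per kilobase in each of the 6 libraries, 10.5 CPM per kb over all, followed by Wnt2b (4.25) and Wnt5a (4.01), which changed places between libraries.

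Wnt4 (chromosome 4, 137277489 to 137299726, plus strand), a ligand of kidney and gonad development, had 30.0, 89.7 and 55.7 CPM in AhR knockout-labelled libraries, against 42.0, 19.3 and 27.2 CPM in wild type. AhR knockout-labelled libraries 2 and 3 were high, while library 1 lay below wild-type library 1, so the groups overlapped. The log2 fold change was 0.99 (SE 0.39, adjusted p = 0.305 by edgeR). The authors' deposited table, coded wild type over knockout, gives −0.91 for Wnt4 with an FDR of 0.0421. Wnt4 made up 26.3%, 44.4% and 31.9% of the summed ligand level per kilobase in AhR knockout-labelled libraries, against 23.4%, 16.1% and 23.6% in wild type.

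Wnt5a (chromosome 14, 28504750 to 28527448, plus strand), the main non-canonical ligand, had 22.4, 32.4 and 25.5 CPM in AhR knockout-labelled libraries, against 38.5, 34.9 and 34.4 CPM in wild type. Every AhR knockout-labelled library was lower, with a log2 fold change of −0.43 (SE 0.17, adjusted p = 0.311 by edgeR). Its share of the summed ligand level was 10.5%, 8.60% and 7.82% in AhR knockout-labelled libraries, against 11.5%, 15.6% and 16.0% in wild type. Wnt2b, which marks the ciliary margin of the developing eye, had 14.8, 12.9 and 22.1 CPM in AhR knockout-labelled libraries, against 24.8, 17.7 and 14.8 CPM in wild type, and the groups overlapped.

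Several other members had their highest values in the same libraries as Wnt4. Wnt7b, a ligand of epithelia and of brain vessel growth, had 2.26, 9.82 and 13.1 CPM in AhR knockout-labelled libraries, against 7.22, 3.97 and 3.14 CPM in wild type. Wnt10a, a ligand of hair and tooth development, had 5.24, 8.34 and 7.33 CPM in AhR knockout-labelled libraries, against 5.83, 1.90 and 3.07 CPM in wild type. Wif1, a secreted Wnt binder, had 1.51, 7.63 and 12.2 CPM in AhR knockout-labelled libraries, against 5.72, 4.13 and 2.94 CPM in wild type. Tcf7, which encodes TCF1, had 3.73, 10.4 and 8.06 CPM in AhR knockout-labelled libraries, against 5.53, 4.21 and 3.77 CPM in wild type. In each of these, as in Wnt4 and Fzd6, AhR knockout-labelled libraries 2 and 3 were the highest of the 6, as they were for the summed cornea and conjunctiva markers given above. These members were picked after their values were seen, for this pattern. It was held by 10 of the 42 tested members (23.8%), against 16.5% of all tested genes, the others being Wnt5b, Fzd3, Apc and Gsk3b. With the mean of those markers as a covariate, the log2 fold change was 0.03 for Wnt4 and 0.04 for Fzd6. A covariate of the same shape as the values takes up their difference whatever its source, so this fit does not test where the transcripts came from, and the part of corneal or conjunctival content in these values was not tested.

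**Figure D4:**
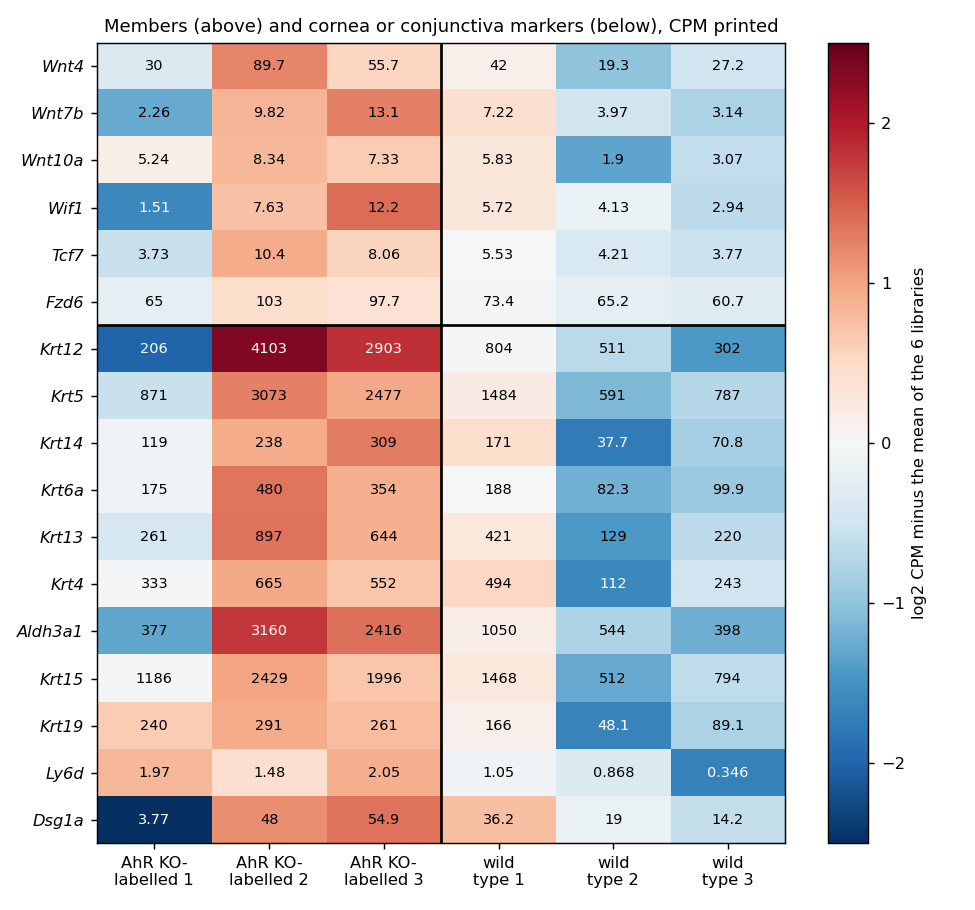
CPM of 6 members (above the line) and of the 11 cornea and conjunctiva markers (below it) in the 6 libraries, AhR knockout-labelled left of wild type, coloured by log2 CPM minus the mean of the 6 libraries. The 6 members were picked because AhR knockout-labelled libraries 2 and 3 are their highest, with 89.7 and 55.7 CPM of Wnt4 and 4103 and 2903 CPM of Krt12, a cornea keratin.

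Of the remaining ligands, Wnt6 had the highest level per kilobase, 3.39 CPM per kb over the 6 libraries, and Wnt5a was above it in 4 of 6. Wnt5b had 9.38, 9.93 and 11.9 CPM in AhR knockout-labelled libraries, against 9.51, 5.83 and 6.18 CPM in wild type. Wnt9a spanned 5.49 to 13.3 CPM, Wnt6 3.56 to 8.62 CPM, Wnt11 4.86 to 7.53 CPM and Wnt2 1.34 to 6.97 CPM in AhR knockout-labelled libraries, against 9.92 to 12.1, 5.39 to 12.1, 5.15 to 8.57 and 4.39 to 8.46 CPM in wild type. Wnt2 made up 2.19%, 6.42% and 4.15% of the summed ligand level in AhR knockout-labelled libraries, against 8.76%, 9.67% and 7.09% in wild type. Shares of a sum are tied to each other, so a higher share of Wnt4 lowers the others. The shares of Wnt2 were separate although its CPM overlapped. Wnt3 and Wnt7a did not pass the filter. Wnt7a had no count in any AhR knockout-labelled library, which allows up to 0.126, 0.165 and 0.121 CPM there (3 counts per library, counting error only), against 0, 0.331 and 0 CPM in wild type. Wnt3 had 0.377, 0 and 0 CPM in AhR knockout-labelled libraries, against 0, 0.537 and 0.691 CPM in wild type. Norrin (Ndp), the non-Wnt ligand of FZD4, had 2.97, 2.36 and 1.007 CPM in AhR knockout-labelled libraries, against 1.77, 4.59 and 0.898 CPM in wild type, with no order between the groups.

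**Figure D5:**
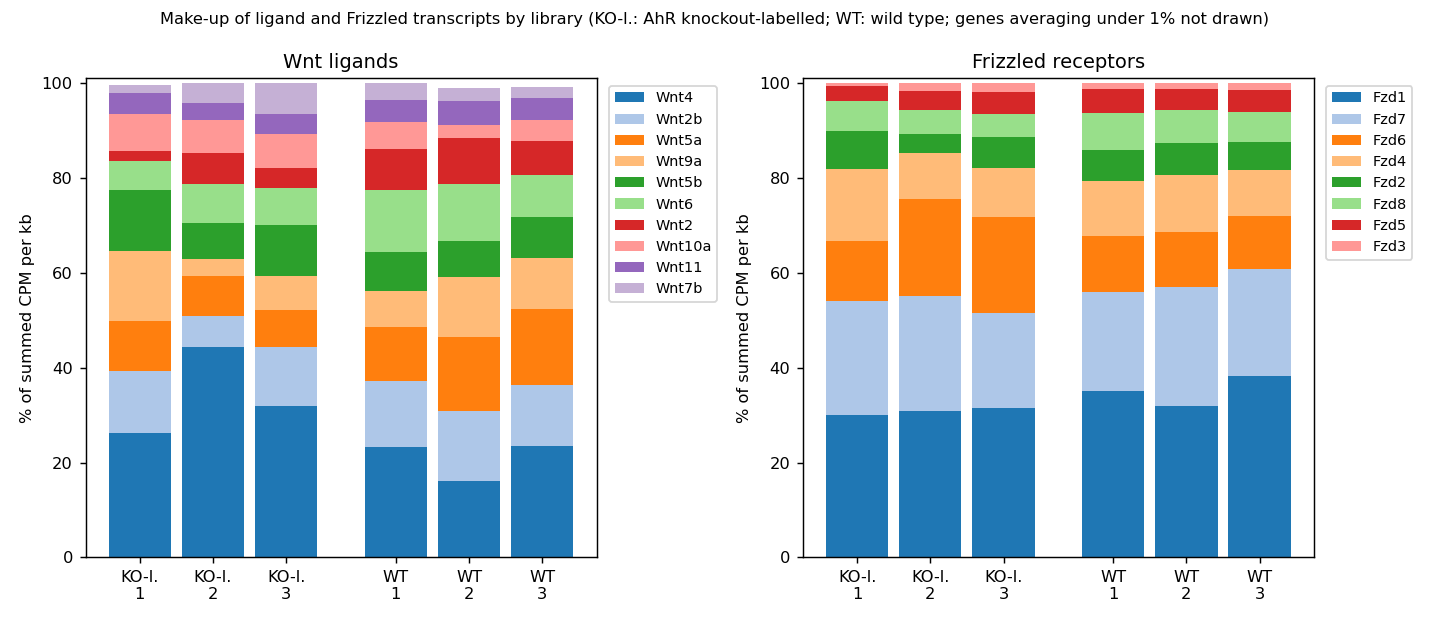
Share of each gene in the summed CPM per kb of the Wnt ligands (left) and the Frizzled receptors (right) in each library, AhR knockout-labelled left of wild type; genes that average under 1% are not drawn. Wnt4 takes 26.3% to 44.4% of the ligand level in AhR knockout-labelled libraries and 16.1% to 23.6% in wild type, and Fzd6 12.7% to 20.5% and 11.1% to 11.9% of the Frizzled level in the same groups. The shares within a library add up to a fixed total, so a rise of 1 gene lowers the shares of the others.

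Genes that make ligands ready for export overlapped between the groups. Wls, which carries Wnts to the cell surface, had 183, 151 and 187 CPM in AhR knockout-labelled libraries, against 183, 187 and 159 CPM in wild type. Porcn, the acyltransferase that adds the lipid to Wnts, had 30.5, 22.7 and 26.2 CPM in AhR knockout-labelled libraries, against 27.4, 35.6 and 35.9 CPM in wild type.

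Summed per kilobase, the 7 antagonists had 307 to 395 CPM per kb in AhR knockout-labelled libraries and 322 to 446 CPM per kb in wild type, well above the Wnt ligands with 27.2 to 48.2 and 27.5 to 42.8 CPM per kb in the same groups. None of the 7 stood at an unadjusted p under 0.05. Dkk3, a divergent member of the secreted Dickkopf family, had the highest level per kilobase (200 CPM per kb), with 597, 694 and 839 CPM in AhR knockout-labelled libraries, against 897, 556 and 444 CPM in wild type. Sfrp2, a Wnt-binding Frizzled-related protein, had 111.0, 212 and 136 CPM in AhR knockout-labelled libraries, against 170, 133 and 306 CPM in wild type. Both spread widely within each group. Sfrp1 spanned 166 to 213 CPM in AhR knockout-labelled libraries and 194 to 254 CPM in wild type. Sfrp5 had 37.5, 12.7 and 18.3 CPM in AhR knockout-labelled libraries, against 29.6, 42.3 and 36.8 CPM in wild type, so that AhR knockout-labelled libraries 2 and 3 were below wild type and library 1 was not. Frzb, a further Frizzled-related protein, and Dkk2, which binds LRP co-receptors, spanned 9.49 to 22.4 and 46.1 to 68.5 CPM in AhR knockout-labelled libraries, against 18.8 to 24.3 and 48.2 to 60.5 CPM in wild type.

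Within the cell the values lay closer together. Ctnnb1, which encodes beta-catenin, had 1237, 1258 and 1270 CPM in AhR knockout-labelled libraries, against 1270, 1297 and 1106 CPM in wild type. Its log2 fold change was 0.04 (SE 0.14), so its transcript level was not separated between the groups. Gsk3b (chromosome 16, 38089001 to 38246084, plus strand), the kinase that marks beta-catenin, was the 1 member with every AhR knockout-labelled library above wild type, at 177, 212 and 231 CPM in AhR knockout-labelled libraries, against 170, 175 and 168 CPM in wild type. Its log2 fold change was 0.27 (SE 0.14, adjusted p = 0.403 by edgeR), and the gap between AhR knockout-labelled library 1 and wild-type library 2 was small. The scaffolds Apc and Axin1 spanned 70.0 to 99.7 and 25.7 to 37.1 CPM in AhR knockout-labelled libraries, against 73.8 to 85.5 and 31.6 to 36.5 CPM in wild type.

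Of the TCF/LEF factors, Tcf7l1, mostly a repressor, had 18.6, 19.0 and 16.1 CPM in AhR knockout-labelled libraries, against 19.5, 15.2 and 16.1 CPM in wild type. Tcf7l2 had 26.9, 38.8 and 27.1 CPM in AhR knockout-labelled libraries, against 37.9, 33.6 and 31.5 CPM in wild type. Lef1 spanned 3.46 to 8.34 CPM in AhR knockout-labelled libraries and 3.42 to 5.87 CPM in wild type. None of the 4 had separate groups.

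A further 71 genes of the pathway (other ligands, receptors, antagonists, cytoplasmic and nuclear components, targets and planar polarity genes) were set beside the members, and 66 were tested. edgeR called none, and DESeq2 called 3 (4.55%, against 3.06% of all genes); 40 had a log2 fold change below 0 and 26 above, with a median of −0.10. At an unadjusted p under 0.05 stood 13 (19.7%, against 14.2% of all genes), of which 12 were lower in AhR knockout-labelled mice. Separate groups were found for 21 (31.8%, against 20.0% of all genes), 16 of them lower. Of the 8 with the lowest p among those with separate groups and a mean of at least 1 CPM, all were lower.

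Gpr124, a co-receptor for Wnt7 ligands in brain endothelium, had 75.9, 50.3 and 69.1 CPM in AhR knockout-labelled libraries, against 124, 128 and 104 CPM in wild type. The groups were far apart, with a log2 fold change of −0.86 (SE 0.17, adjusted p = 0.126 by edgeR and 0.00099 by DESeq2). Bcl9l, which ties beta-catenin to Pygopus, had 42.6, 40.4 and 36.9 CPM in AhR knockout-labelled libraries, against 71.9, 59.3 and 56.5 CPM in wild type. Its log2 fold change was −0.65 (SE 0.14, adjusted p = 0.140 by edgeR and 0.0113 by DESeq2). Sostdc1, a secreted antagonist of Wnt and BMP ligands, had 49.3, 37.5 and 30.9 CPM in AhR knockout-labelled libraries, against 78.5, 57.0 and 62.6 CPM in wild type. Its log2 fold change was −0.75 (SE 0.19, adjusted p = 0.183 by edgeR and 0.0294 by DESeq2). In the authors' deposited table, coded wild type over knockout, these 3 have log2 fold changes of 0.82, 0.64 and 0.75 with FDRs of 0.00473, 0.0461 and 0.0246. Over the 17 alternatives the adjusted p ranged from 0.00099 to 0.430 for Gpr124, from 0.0113 to 0.430 for Bcl9l and from 0.0268 to 0.441 for Sostdc1. The endothelial, pericyte and fibroblast marker values given with the receptors stand beside Gpr124 too, and their part was not tested.

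The other 5 had smaller differences relative to their errors. Dvl2 and Dvl3 encode Dishevelled proteins, which relay the signal from Frizzleds. Dvl2 had 23.8, 13.6 and 20.4 CPM in AhR knockout-labelled libraries, against 30.5, 35.4 and 30.1 CPM in wild type (log2 fold change −0.73, SE 0.21, adjusted p = 0.210 by edgeR). Dvl3 had 36.7, 23.8 and 30.5 CPM in AhR knockout-labelled libraries, against 40.01, 46.6 and 42.9 CPM in wild type (log2 fold change −0.51, SE 0.18, adjusted p = 0.258 by edgeR). In both, AhR knockout-labelled library 2 was the lowest. Daam2, a formin that binds Dishevelled, had 45.1, 27.0 and 30.3 CPM in AhR knockout-labelled libraries, against 46.8, 50.2 and 53.1 CPM in wild type (log2 fold change −0.55, SE 0.19). Tle2, a corepressor of TCF/LEF factors, had 31.8, 19.5 and 32.5 CPM in AhR knockout-labelled libraries, against 37.1, 42.7 and 45.7 CPM in wild type (log2 fold change −0.58, SE 0.21). Vangl2, a planar polarity gene, had 6.87, 5.60 and 5.64 CPM in AhR knockout-labelled libraries, against 11.3, 8.55 and 8.499 CPM in wild type (log2 fold change −0.64, SE 0.26). For Daam2 the groups nearly touched, at AhR knockout-labelled library 1 and wild-type library 1.

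Counting was not stated to use strand. In the annotation used here 8 members share exon bases with a gene on the other strand (Wnt5a, Wnt7b, Fzd6, Sfrp2, Ctnnb1, Lef1, Tcf7l1 and Axin2). The shared stretch ran from 152 bases for Fzd6 to 1208 for Lef1. If strand was not used, reads over those bases could not be told apart, and how they were counted is not known. Without AhR knockout-labelled library 1, edgeR called 4.95% of all genes tested in that fit and 3 of the 42 members (7.14%), a share near that of all genes: Fzd6 (log2 fold change 0.60, adjusted p = 0.0361), Fzd8 (−0.75, adjusted p = 0.0487) and Sfrp5 (−1.22, adjusted p = 0.0268). Over the 17 alternatives the adjusted p ranged from 0.0361 to 0.970 for Fzd6, from 0.0487 to 0.531 for Fzd8 and from 0.0268 to 0.970 for Sfrp5.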

How the data were processed

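RNA-seq counts of 6 libraries, 3 AhR knockout-labelled and 3 wild-type mice, were analysed. Per the submitters' processing notes, which name TopHat, Bowtie, HTSeq and edgeR and the build mm10, reads were aligned and counted per gene by the authors; the deposited counts are whole numbers and not normalized. Strandedness and versions are not stated in the sources at hand. The deposited table of the authors' comparison holds log2 fold changes (wild type over knockout) and p-values with FDR. The 5 tally rows that name no gene were left out; reads with no feature were 14.4% to 16.8% of all counted reads, and reads aligned more than once 22.9% to 25.1% in AhR knockout-labelled and 18.7% to 19.4% in wild-type libraries.

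Here the counts were filtered (edgeR 4.0.16 filterByExpr, minimum count 10, minimum total 15), scaled by TMM and tested with the quasi-likelihood test in R 4.3.3, with Benjamini-Hochberg adjustment over 15796 genes. The SE is the log2 fold change divided by the root of F. DESeq2 1.42.0 and limma 3.58.1 (voom) were alternatives. The model was tested on simulated data with a smaller spread between animals than these data have, and with changes placed only in genes with many counts. That trial does not show how well it finds differences here. Exon length, GC content and positions came from GENCODE M21 (GRCm38), promoters from RefSeq. Animals share numbers across groups, but same-numbered libraries did not deviate together, which with 3 animals a group does not settle whether they are paired. The labels give no batch.

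Named with every library's value are members with an unadjusted p under 0.05 or separate groups, the 2 with the highest level per kilobase in each role, and 8 further pathway genes with the lowest p among separate groups; Wnt7b, Wnt10a, Wif1, Tcf7, Sfrp5, Fzd4, Wnt5b and the shares were singled out after their values were seen. Members and lists were chosen with earlier results of these data known.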

Additional observations from a re-analysis of the deposited data

How the results depend on the processing

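All 11 named members and all 8 named further pathway genes kept the sign of their log2 fold change in 17 of 17 alternative settings. Of the 42 tested members 25 did. The named genes were picked for a low p or separate groups in these same libraries. That choice favours a kept sign, so the kept signs are not support for them. Fzd8 and Lrp6 stood at an unadjusted p under 0.05 in 17 of 17 settings and Fzd1 in 16, Wnt4 in 10 and Axin2 in 4. The log2 fold change of Wnt4 ranged from 0.03 to 1.33. The median over the members ranged from −0.26 to −0.09. The count of all genes called, 8, became 15 with upper-quartile factors, 22 with no filter beyond 1 count, 16 with at least 1 CPM in 3 libraries, 483 with DESeq2, 13 with limma-voom, 352 with edgeR's exact test, 1 with sex (library 1 of each group female, the others male) as a covariate, 22 with the mean cornea and conjunctiva marker level as a covariate and 30 at an adjusted p under 0.10. The count of members called, 0, became 1 with DESeq2, and that of further pathway genes, 0, became 3 with DESeq2 and 3 with edgeR's exact test. With animal number as a replicate block 1 gene and 0 members were called and 5 members stood at an unadjusted p under 0.05, in place of 9. The share of all genes at that threshold was not computed for the block fit, so the drop is not read as a result about the members. Deviations of same-numbered libraries correlated at −0.10, −0.09 and −0.07. With 3 animals a group this does not settle whether the numbers pair the samples. Leaving out 1 library at a time gave 0 to 795 genes called, 0 to 3 members called, 4 to 16 members at an unadjusted p under 0.05, 10 to 24 with separate groups and 0 to 5 further pathway genes called. The highest of each came without AhR knockout-labelled library 1, where 4.95% of all genes tested in that fit were called. Shares of all genes at an unadjusted p under 0.05 or with separate groups were not computed for these fits. The member counts are therefore not read as results about the members. The lowest count at an unadjusted p under 0.05 came without AhR knockout-labelled library 3 (4) and without wild-type library 2 (5). Separate groups numbered 16 without wild-type library 1. Smaller groups overlap less often by construction, so counts with 1 library left out are not comparable with the count over all libraries. Separation has no value of its own under DESeq2, limma-voom, the exact test, the block or the covariates. The cause of these shifts was not tested. With 3 animals a group and a common biological coefficient of variation of 0.28, precision is limited by the animals more than by counts, except for Wnt3 and Wnt7a.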
